A study of Mus musculus with 8 samples.

Results

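The genes described here are 35 genes of brain endothelial cells, the cells that line blood vessels, and of the blood-brain barrier that these cells form. They were picked by symbol, and each symbol matched 1 gene of the 55536 genes in a count table from mouse frontal cortex. The study deleted HAR123, an enhancer within an intron of Smg6, and asked which frontal cortex genes it regulates. RNA-seq of total RNA depleted of ribosomal RNA gave 8 libraries from mice 8 weeks old, with 4 libraries from WT and 4 from HAR123-KO tissue. The HAR123-KO line was made by injecting Cas9 with guide RNAs into C57BL/6J zygotes, and mouse strains were backcrossed to C57BL/6J, so the deletion was present in every cell type and was not directed to vessels. The WT mice were littermates and carried no deletion. The labels do not say whether each library came from a separate animal, so p-values measure the spread between these libraries only. The count table has no feature that measures the deleted element itself.

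Endothelial cells of the brain differ from those of most organs in that tight junctions seal the gaps between them, few vesicles cross them, and transporters choose what passes between blood and brain. Wnt signals from neural tissue, read through factors such as Lef1, maintain this state, while VEGF and angiopoietin receptors control growth and stability of the vessels. The cells also differ along the vascular tree, and von Willebrand factor and Sox17 are used as labels of large or arterial vessels whereas Mfsd2a and Slc7a5 are typical of capillaries.

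Libraries held 13528251 to 17051001 counts in all, and nuclear protein-coding genes received 2786320 to 3732172 of them. Despite the depletion, the feature Gm42418, which overlaps ribosomal RNA sequence, took 56.8% to 58.0% of the counts in WT and 55.1% to 57.4% in HAR123-KO, and its part in the results was not tested. The members were therefore measured from few reads, with raw counts from 1 to 643 per gene and library. Normalized counts below are counts divided by the DESeq2 size factor of each library. The threshold had 2 parts, a DESeq2 Wald test p under 0.05 after Benjamini-Hochberg adjustment over all genes tested, and a log2 fold change beyond 0.5 in either direction. DESeq2 gave an adjusted p to 12758 genes, including 28 of the 35 members. The other 7 (Sox17, Ocln, Tie1, Erg, Sox18, Foxq1 and Emcn) had mean normalized counts under 17.6 and received none. The defining endothelial markers Cldn5, Pecam1, Cdh5, Flt1, Tie1 and Tek were detected in all 8 libraries. In whole tissue, fewer cells of a type and less RNA per cell cannot be told apart.

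In HAR123-KO cortex, 3 members passed the threshold. Vwf, which encodes the blood glycoprotein that endothelial cells store and release for platelet adhesion, fell to 0.538 of its WT level. Itgb4, the integrin subunit that binds laminin in the basement membrane, rose 1.63-fold. Arhgef15, a guanine nucleotide exchange factor of endothelial cells that is also known in neurons, rose 1.59-fold. These are 3 of the 28 members tested (10.7%), beside 0.298% of all genes tested. By direction, 1 member fell, beside 0.0705% of all genes, and 2 rose, beside 0.227%. None of the other 25 members tested had an adjusted p under 0.05, so the count was also 3 with no minimum fold change, beside 1.69% of all genes (0.972% higher and 0.713% lower).

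Most of the other fitted values were small and below 0. The log2 fold change was below 0 for 24 of the 28 members tested (85.7%), with a median of -0.20, beside 50.6% of all genes tested (49.4% were above 0), whose median was -0.0017. Over all 35 members, 31 values were below 0 and the median was -0.21. The 4 members above 0 were Itgb4, Arhgef15, Eng and Slc2a1, of which Eng and Slc2a1 turned sign when single libraries were left out. An unadjusted p under 0.05 was found for 9 of the 28 members (32.1%), beside 8.78% of all genes tested. Of these, 7 were lower (4.27% of all genes) and 2 were higher (4.51% of all genes). The members and their directions were known from earlier results when they were picked, so these shares describe the list and are not a test of it.

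**Figure D1:**
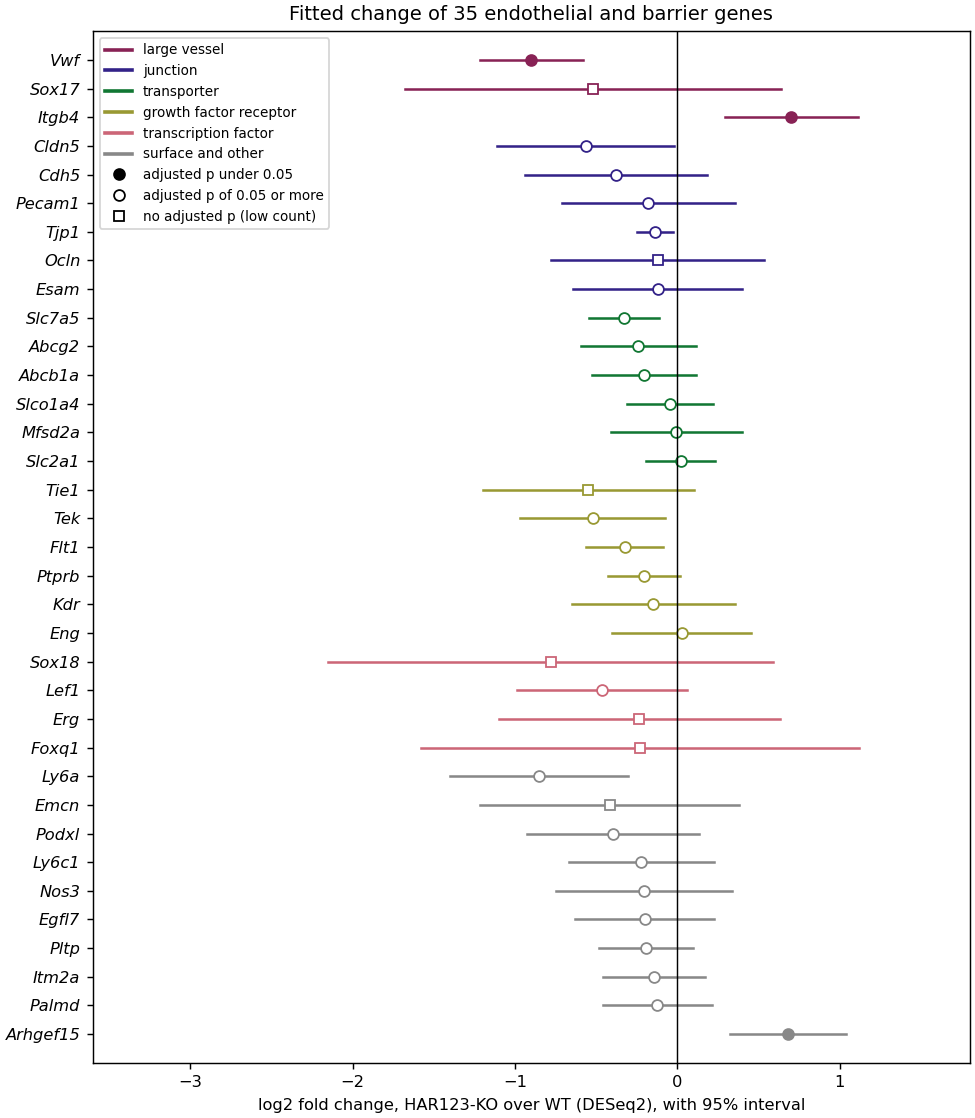
Log2 fold change (HAR123-KO over WT, horizontal axis) of the 35 members, with 95% intervals from the DESeq2 fit, coloured by role. Filled circles mark an adjusted p under 0.05 (Vwf to the left of 0, Itgb4 and Arhgef15 to the right), open circles a larger adjusted p, and squares the 7 members with no adjusted p. Most other points lie left of 0, and most of their intervals cross it.

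The 3 large-vessel genes did not share a direction. Vwf (ENSMUSG00000001930, chr6:125546774-125686679, GRCm38) had normalized counts of 84.4, 94.7, 94.9 and 93.1 in WT and 41.0, 43.7, 50.2 and 62.7 in HAR123-KO. All 4 HAR123-KO libraries lay below all WT libraries, and the highest of them was well under the lowest WT value. The log2 fold change was -0.90 ± 0.16 (SE, n = 4 per genotype), with a DESeq2 adjusted p of 7.3e-06 and a 95% interval of the fold from 0.431 to 0.667. Vwf passed the threshold without each of 7 libraries in turn (adjusted p from 6.3e-05 to 0.00067). Without HAR123-KO replicate 4 its mean of 72.4 was under the lowest mean of 86.9 that received an adjusted p in that fit, and its log2 fold change was -1.03 (DESeq2 unadjusted p = 1.1e-08).

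Itgb4 (ENSMUSG00000020758, chr11:115974709-116008412) had normalized counts of 25.9, 35.004, 28.8 and 33.2 in WT and 49.1, 54.2, 45.8 and 51.0 in HAR123-KO. The groups did not overlap, and every HAR123-KO library was higher. Its log2 fold change was 0.70 ± 0.21 (SE, n = 4 per genotype; DESeq2 adjusted p = 0.0452). This call was close to the limit. It was lost without any 1 of 6 libraries (adjusted p from 0.0802 to 0.316), and without WT replicate 3 or HAR123-KO replicate 4 no adjusted p was given (DESeq2 unadjusted p = 0.0046 and 0.0027). It was also lost with no independent filter (adjusted p = 0.0996) and with a minimum of 10 counts in 4 libraries (adjusted p = 0.0792), and was kept by edgeR (adjusted p = 0.0120) and limma-voom (adjusted p = 0.0179). Exons of Itgb4 overlap those of B230344G16Rik on the other strand, which had 7 counts in all, and the effect of this overlap on the count of Itgb4 was not tested.

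Sox17, a transcription factor needed for arterial identity, was near the limit of detection. Its normalized counts were 11.3, 8.24, 5.08 and 2.14 in WT and 2.05, 5.71, 5.28 and 5.32 in HAR123-KO. The groups overlapped, with 2 WT libraries above every HAR123-KO library, and the log2 fold change of -0.52 ± 0.59 (SE, n = 4 per genotype) had no adjusted p. The 95% interval of its fold ran from 0.312 to 1.56, so neither a fall nor a rise of Sox17 was resolved at this depth.

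**Figure D2:**
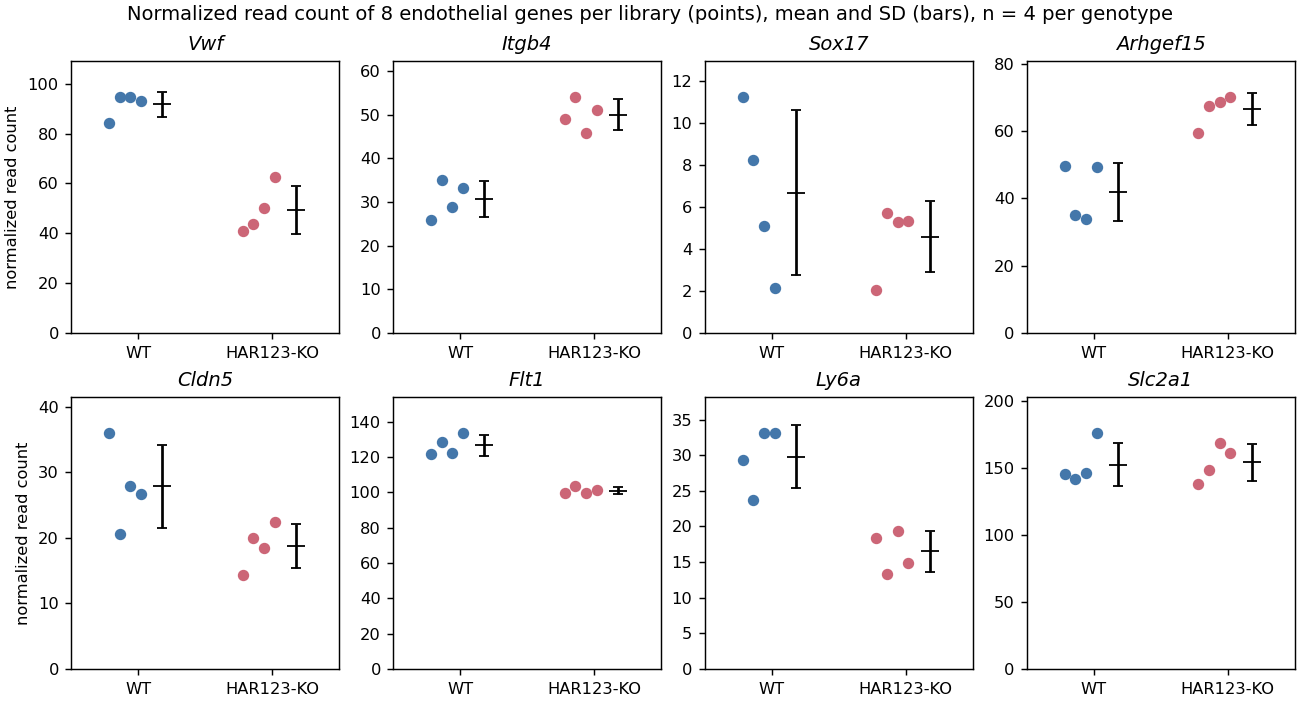
Normalized read count (vertical axis, from 0) of 8 members in each library, with the mean and SD of the 4 libraries per genotype at the right of each group. Vwf, Flt1 and Ly6a lie lower and Itgb4 and Arhgef15 higher in all 4 HAR123-KO libraries, whereas Sox17, Cldn5 and Slc2a1 overlap.

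To compare large vessels with the capillary barrier within each library, the log2 ratio of each large-vessel gene to Cldn5 was tested with a two-sided exact permutation test, adjusted over the 3 ratios. Cldn5 encodes the main claudin of brain endothelial tight junctions. The ratio of Vwf to Cldn5 was lower by 0.36 in HAR123-KO than in WT, from 1.73 ± 0.39 to 1.37 ± 0.17 (SD, n = 4 per genotype), and the permutation p of 0.114 (adjusted 0.171) did not separate them. The ratio of Itgb4 to Cldn5 was higher by 1.25, from 0.16 ± 0.51 to 1.41 ± 0.25 (SD, n = 4 per genotype), with an exact permutation p of 0.0286, the smallest that 4 against 4 allows, and an adjusted p of 0.0857. The ratio of Sox17 to Cldn5 differed by 0.17, with an exact permutation p of 0.8. With Pecam1, an adhesion molecule of all endothelial cells, in place of Cldn5, Vwf was lower by 0.76 and Itgb4 higher by 0.85 (both with an exact permutation p of 0.0286, adjusted 0.0429). The directions of Vwf and Itgb4 were known when they were picked, and the ratios come from the same libraries as the calls above. The ratio p-values are therefore no separate evidence for either change. The difference between the 2 reference genes was not tested. Cldn5 and Pecam1 each had only about 14 to 36 normalized counts per library, which limits both comparisons.

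Among the junction genes, no member passed the threshold, and the fitted values of all 5 tested were below 0, although that of Esam turned without HAR123-KO replicate 3. Cldn5 (chr16:18776847-18778262) had normalized counts of 36.0, 20.6, 27.96 and 26.7 in WT and 14.3, 19.97, 18.5 and 22.3 in HAR123-KO. The groups overlapped only through 1 WT and 1 HAR123-KO library, and the log2 fold change was -0.56 ± 0.28 (SE, n = 4 per genotype; DESeq2 adjusted p = 0.535). Tjp1, the scaffold protein ZO-1 that ties junctions to actin and is made by many other cell types, was the most highly counted member. Its normalized counts were 575, 571, 545 and 576 in WT and 529, 496, 539 and 495 in HAR123-KO. The groups did not overlap, but the difference was small, with a log2 fold change of -0.14 ± 0.06 (SE, n = 4 per genotype; DESeq2 adjusted p = 0.370). Values were -0.38 for Cdh5 (VE-cadherin, the adherens junction protein of endothelium), -0.18 for Pecam1 and -0.12 for Esam, an adhesion molecule of endothelial tight junctions. Ocln, the tight junction protein occludin, had a log2 fold change of -0.12 and no adjusted p.

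No transporter had an adjusted p under 0.05, and the fitted values of 5 of the 6 were below 0. Slc2a1, the glucose transporter GLUT1, had normalized counts of 145, 142, 147 and 177 in WT and 138, 148, 169 and 162 in HAR123-KO, and the groups were intermixed. Its log2 fold change was 0.02 ± 0.11 (SE, n = 4 per genotype), with a 95% interval of the fold from 0.876 to 1.17. Mfsd2a, which carries lysolipids with docosahexaenoic acid and holds vesicle transport low, had a log2 fold change of -0.01 ± 0.20, and its interval ran from 0.754 to 1.32. Slco1a4, an organic anion carrier, had a log2 fold change of -0.04 ± 0.14, with an interval from 0.807 to 1.17. The sign of these 3 values turned when single libraries were left out. The drug efflux pumps Abcb1a and Abcg2 had log2 fold changes of -0.21 and -0.24, both with overlapping groups.

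Slc7a5, the light chain of the LAT1 transporter for large neutral amino acids, had the lowest log2 fold change of the 6, and its difference from the other carriers was not tested. In WT it had normalized counts of 178, 164, 188 and 140, and in HAR123-KO of 142, 142, 126 and 125. A single WT library, replicate 4, lay within the HAR123-KO range. The log2 fold change was -0.33 ± 0.11 (SE, n = 4 per genotype; DESeq2 adjusted p = 0.122), and the adjusted p was under 0.05 in 2 of 16 alternatives, edgeR and the fit without WT replicate 4, the library that overlapped. Leaving out each of the 8 libraries in turn gave a DESeq2 adjusted p from 0.0358 to 0.556.

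Among the growth factor receptors and their partners, Flt1 and Tie1 had no overlap between genotypes. Over all 35 members, the groups did not overlap for 5 lower genes (Vwf, Tjp1, Flt1, Tie1 and Ly6a) and 2 higher genes (Itgb4 and Arhgef15). Of the 28 tested, these were 6 (21.4%), beside 7.67% of all genes tested (3.65% lower and 4.02% higher). Flt1, a VEGF receptor that also acts as a decoy, had normalized counts of 122, 129, 122 and 134 in WT and 99.3, 104, 99.5 and 101 in HAR123-KO. The 2 groups were narrow and apart, with CVs of 4.59% and 1.99%, both below the 9.35% that counting error alone gives. Its log2 fold change of -0.33 ± 0.12 (SE, n = 4 per genotype) had a DESeq2 adjusted p of 0.222.

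Tie1, the partner of the angiopoietin receptor, had normalized counts of 18.0, 18.5, 20.3 and 17.1 in WT and 12.3, 12.4, 11.4 and 14.9 in HAR123-KO. Every HAR123-KO library was lower, and the log2 fold change of -0.55 ± 0.33 (SE, n = 4 per genotype) had no adjusted p because of its low count. Tek, the angiopoietin receptor Tie2, had a log2 fold change of -0.52 ± 0.23 with a DESeq2 adjusted p of 0.402 and overlapping groups. Kdr, the main signalling receptor for VEGF, had -0.15 ± 0.26, and Ptprb, the phosphatase that restrains Tie2, had -0.20 ± 0.11. Eng, a coreceptor for TGF-beta ligands, had 0.03 ± 0.22, and its exons overlap those of Fpgs on the other strand, so its counts are uncertain.

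The promoter of Cldn5 and those of Flt1 and Tie1 are shown because ETS factors such as Erg act on many endothelial promoters. Flt1 and Tie1 were picked after their values were seen. Each window covers 250 bases before and 50 after the RefSeq start on GRCm38.p6, written 5′ to 3′ on the strand of the gene, at chr16:18776597-18776896 (plus strand), chr5:147725962-147726261 (minus strand) and chr4:118489800-118490099 (minus strand), respectively. Capitals mark matches on either strand to AGGAAG or CGGAAG, forms of the ETS core, AACAAT for SOX factors, CTTTGA for TCF/LEF factors and AGATAA for GATA factors, which do not share letters in these windows.
Cldn5: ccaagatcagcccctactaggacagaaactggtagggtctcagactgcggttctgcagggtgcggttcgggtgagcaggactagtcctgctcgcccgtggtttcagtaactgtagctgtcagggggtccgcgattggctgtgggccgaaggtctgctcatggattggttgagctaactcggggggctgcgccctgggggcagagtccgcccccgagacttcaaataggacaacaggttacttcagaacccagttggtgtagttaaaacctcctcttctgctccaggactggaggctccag
Flt1: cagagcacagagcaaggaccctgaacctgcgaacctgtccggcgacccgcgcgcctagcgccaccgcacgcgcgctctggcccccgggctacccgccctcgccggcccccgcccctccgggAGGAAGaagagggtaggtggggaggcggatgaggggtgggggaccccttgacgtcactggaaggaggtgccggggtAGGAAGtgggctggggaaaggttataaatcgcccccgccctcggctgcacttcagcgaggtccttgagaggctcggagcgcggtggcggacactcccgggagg
Tie1: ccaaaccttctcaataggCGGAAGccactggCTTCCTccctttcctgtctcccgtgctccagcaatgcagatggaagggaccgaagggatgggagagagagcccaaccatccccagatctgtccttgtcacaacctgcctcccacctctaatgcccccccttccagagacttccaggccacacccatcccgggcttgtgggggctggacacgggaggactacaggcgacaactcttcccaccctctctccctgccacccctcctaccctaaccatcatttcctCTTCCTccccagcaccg

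The Flt1 window held 2 matches to AGGAAG, and the Tie1 window held 3 ETS matches. For Tie1 the RefSeq start lies 212 bases inside the gene as annotated by GENCODE, so most of its window lies within that gene. For Flt1 and Cldn5 the RefSeq and GENCODE starts are the same. The Cldn5 window held no match, which says only that these letters are not in it. Among the 20 members with a promoter in the RefSeq table, AGGAAG was found in 12, beside 38.4% of the 27025 genes in the table. CGGAAG was found in 2 (18.8% of genes), and the SOX, TCF/LEF and GATA motifs in 4 each (12.2%, 18.2% and 12.7% of genes). The matches are descriptions of the letters and not of binding.

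Of the 4 transcription factors besides Sox17, 3 had counts too low for an adjusted p. Lef1, the factor through which Wnt signals reach the barrier programme, was the only 1 with an adjusted p (DESeq2 adjusted p = 0.660), and its log2 fold change was -0.47 ± 0.27 (SE, n = 4 per genotype). Its normalized counts were 31.5, 30.9, 30.5 and 22.5 in WT and 14.3, 19.97, 23.8 and 25.5 in HAR123-KO, and WT replicate 4 lay within the HAR123-KO range. Erg, a master factor of endothelial identity, had 4.24 to 18.2 normalized counts in WT and 3.80 to 13.8 in HAR123-KO. The barrier factor Foxq1 and the vessel factor Sox18 had fewer than 8 in every library.

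Arhgef15 (ENSMUSG00000052921, chr11:68943155-68957480) was the member outside the large vessels that passed the threshold. Its normalized counts were 49.5, 35.004, 33.9 and 49.2 in WT and 59.4, 67.5, 68.7 and 70.2 in HAR123-KO. The WT libraries fell into a lower and a higher pair, and all HAR123-KO libraries lay above both. Its log2 fold change was 0.68 ± 0.18 (SE, n = 4 per genotype; DESeq2 adjusted p = 0.0160), and the 95% interval of the fold was 1.25 to 2.05. The call was lost, with adjusted p from 0.0902 to 0.183, when replicate 2 or replicate 3 of either genotype was left out, and without HAR123-KO replicate 4 no adjusted p was given (DESeq2 unadjusted p = 0.0014).

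Ly6a (Sca-1), a membrane-anchored protein of endothelial and stem cells, had the lowest fold change after Vwf. The libraries gave it normalized counts of 29.3, 23.7, 33.0 and 33.2 in WT and 18.4, 13.3, 19.4 and 14.9 in HAR123-KO. The groups did not overlap, and the log2 fold change was -0.85 ± 0.28 (SE, n = 4 per genotype; DESeq2 adjusted p = 0.106). It was past the threshold in 2 of 12 alternatives, edgeR (adjusted p = 0.0325) and limma-voom (adjusted p = 0.0491), and in none of the 4 fits without 1 library that gave it an adjusted p (0.143 to 0.487). Ly6c1, the neighbouring family member in capillaries, had a log2 fold change of -0.22 ± 0.23. Reads that match both Ly6a and Ly6c1 could be split between them, so both values are uncertain to that extent.

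The rest of the surface and other endothelial genes did not pass the test. Podxl, a sialomucin of the luminal surface, varied most beyond counting error. Normalized counts of Podxl were 48.4, 90.6, 83.0 and 69.5 in WT and 38.9, 51.3, 56.3 and 75.5 in HAR123-KO. Within each genotype the CV was 25.4% and 27.4%, against 12.4% from counting. For 17 of the 35 members the mean CV of the genotypes was under the counting error, and for 2 it was over 1.5 times that error. Log2 fold changes were -0.42 for the surface mucin Emcn, -0.20 for Egfl7, a secreted factor of endothelium, -0.21 for Nos3, the endothelial nitric oxide synthase, -0.14 for the membrane protein Itm2a, -0.12 for Palmd and -0.19 for Pltp, the phospholipid transfer protein. Exons of Pltp overlap Ctsa, those of Nos3 overlap Atg9b, and those of Egfl7 overlap Agpat2, each on the other strand, and the sources used here do not state how strand was treated at counting.

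Levels between genes were compared per length, as reads per kb of exon scaled to the nuclear protein-coding total of the library (RPKM). In WT the order began with Tjp1 at 23.1 ± 0.67, followed by Slc7a5 at 14.3 ± 1.8, Slc2a1 at 13.8 ± 1.5 and Itm2a at 13.5 ± 0.98 RPKM (SD, n = 4). The last 3 of these did not differ beyond their spread. Of the large-vessel genes, Vwf was at 1.81 ± 0.094 RPKM in WT and 0.977 ± 0.19 in HAR123-KO, Itgb4 at 1.39 ± 0.19 and 2.27 ± 0.16, and Sox17 at 0.445 ± 0.26 and 0.305 ± 0.11 (SD, n = 4). The lowest level in WT was that of Foxq1, at 0.286 ± 0.087 RPKM (SD, n = 4).

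**Figure D3:**
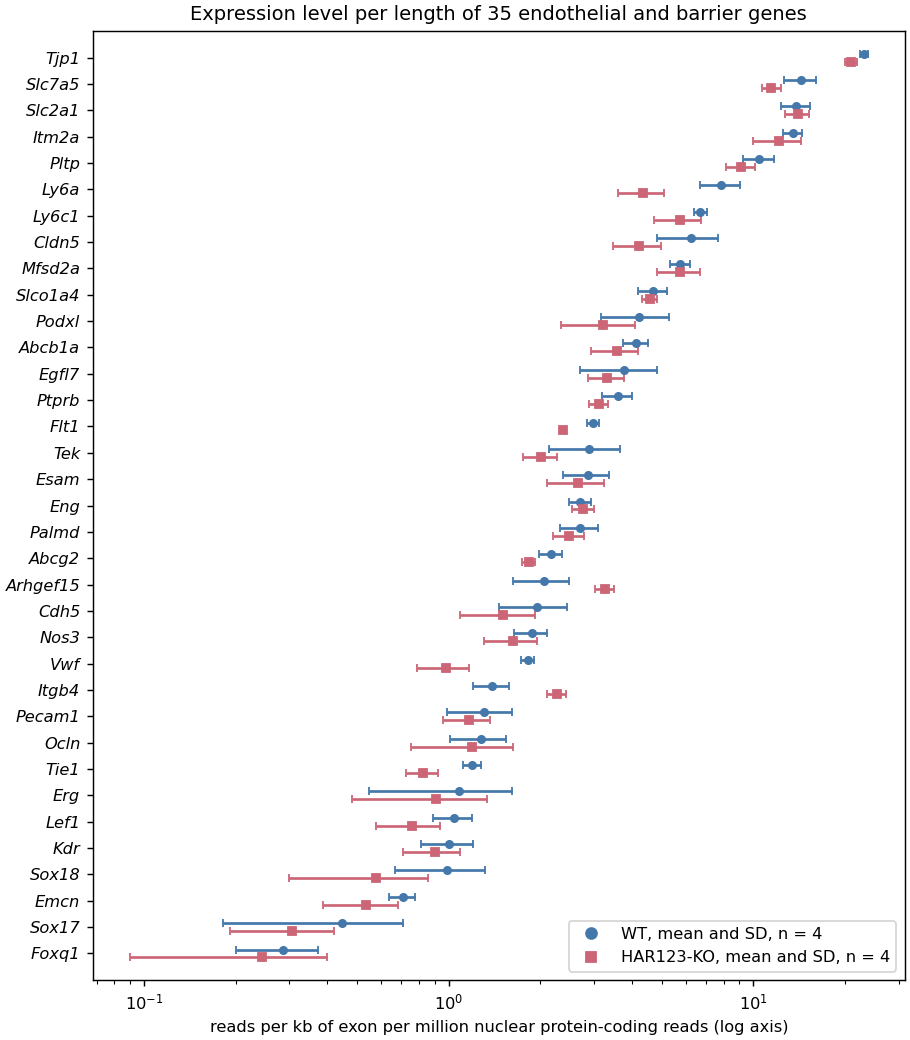
Level of each member per exon length (log axis, RPKM as defined in the text), with the mean and SD of 4 libraries in WT (circles) and HAR123-KO (squares). Levels run from 23.1 for Tjp1 to 0.286 for Foxq1 in WT, and the mean and SD of the genotypes lie apart for, among others, Vwf, Itgb4, Arhgef15 and Ly6a.

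Neighbouring genes were read to see whether the 3 members past the threshold moved with their surroundings. Next to Vwf, the first tested gene at higher coordinates, Ano2, a calcium-activated chloride channel, rose with a log2 fold change of 1.03 ± 0.27 (SE, n = 4 per genotype; DESeq2 adjusted p = 0.0140), opposite to Vwf. On the other side of Vwf, Cd9 had a log2 fold change of 0.17. The genes beside Itgb4 (Sap30bp, -0.21, and H3f3b, 0.09) and beside Arhgef15 (Rpl26, 0.19, and Slc25a35, -0.44) did not pass the test. Itgb4 and Arhgef15 lie on chromosome 11, as Smg6 does, at distances of 40.8 and 5.97 Mb from it. They were the 2 genes past the threshold among 945 tested on that chromosome (0.212%), beside 0.305% of genes on the others.

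Other genes of vessels were read from lists by role. A further arterial list held 14 genes, and none of the 6 tested passed. Log2 fold changes were 0.20 for Efnb2, the arterial ephrin, -0.01 for Hey1 and -0.48 for Mgp. Of the 6 tested values, 3 were above 0 and 3 below. The rest of this list had counts too low for an adjusted p. Fitted values of those low-count genes all lay below 0, from -2.78 to -0.05, a side shared by 50.8% of all genes with a p-value. Of 3 venous genes none passed, with log2 fold changes of -0.02 for Ackr1, -0.18 for Vcam1 and -0.56 for Nr2f2, the venous fate factor (DESeq2 adjusted p = 0.155 for Nr2f2). Selp was at 0 in all libraries. Among 14 further barrier transporters, 7 fitted values were above 0 and 7 below, with a median of -0.0037, and 2 were lower with an adjusted p under 0.05, a rule met in that direction by 0.713% of all genes tested. These were Slc38a3, a glutamine carrier, at -0.42 (DESeq2 adjusted p = 0.00025), and Tfrc, the transferrin receptor, at -0.22 (DESeq2 adjusted p = 0.0106). Whole-tissue counts do not show which cell types these 2 values come from. In a list of 7 tested VEGF and angiopoietin genes, Apln, the ligand apelin, was lower, with a log2 fold change of -0.47 (DESeq2 adjusted p = 0.0241).

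Lists for junctions and vesicles (8 tested), Wnt barrier signalling (14), Notch in vessels (5), flow-responsive genes (4) and the storage granules of Vwf with haemostasis (2) held no gene with an adjusted p under 0.05. The median log2 fold changes were -0.08, -0.09, -0.06, -0.19 and -0.16, respectively. The most counted flow-responsive gene, S1pr1, had -0.22 (DESeq2 adjusted p = 0.0673), and Rbpj, the DNA-binding partner of Notch, had -0.33 (DESeq2 adjusted p = 0.0537).

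Markers of cells that lie in or near vessels were read beside the members. Red blood cell genes were lower, with all 4 tested globin genes under an adjusted p of 0.05 and log2 fold changes from -0.40 to -0.29. The summed normalized count of that list was 1523 to 1683 in WT and 1238 to 1302 in HAR123-KO, while Alas2 and Slc4a1, also on it, were at low counts. The globin genes have near-identical copies, so their separate values are uncertain. Pericyte and smooth muscle genes had 0 of 8 tested with an adjusted p under 0.05, a median of -0.07 and summed counts of 625 to 704 in WT and 639 to 687 in HAR123-KO. The tested log2 fold changes ran from -0.48 to 0.33, with 3 above 0 and 5 below. The rest of the 15 genes on that list, among them several smooth muscle genes, had counts too low for an adjusted p. Of 5 tested fibroblast and meninges genes only Ptgds was lower with an adjusted p under 0.05. The summed count of that list was 1369 to 1405 in WT and 1161 to 1247 in HAR123-KO, mostly from Ptgds (1194 in WT), while its mean log2 ratio per library overlapped (-0.07 to 0.10 in WT and -0.52 to -0.010 in HAR123-KO). Platelet genes summed to 25.7 to 36.4 in WT and 25.7 to 37.2 in HAR123-KO, mostly from Itgb3 (means of 22.6 and 25.0). The defining platelet gene Ppbp was at 0 in all libraries, so these sums say little about platelets.

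Lists of other brain cells were read as well, and some but not all held genes with an adjusted p under 0.05. Striatal projection neuron genes were higher, with 8 of 10 past an adjusted p of 0.05 and sums of 4337 to 4492 in WT and 5758 to 5945 in HAR123-KO. Choroid plexus genes were higher for all 3 tested, with sums of 955 to 1013 in WT and 1871 to 1988 in HAR123-KO. Most of each sum came from Enpp2 (means of 889 in WT and 1197 in HAR123-KO) and Ttr (68.2 and 641). Of 10 oligodendrocyte genes 4 were higher, of 12 astrocyte genes 3 were lower (among them Slc1a2 and Gja1), of 10 neuron genes 2 were lower, and of 8 microglia genes none passed the adjusted p of 0.05. The part of these shifts in the values of Vwf, Itgb4, Arhgef15 and the other members was not tested. Averaged over the 26 tested members outside the large vessels, the log2 ratio to the WT mean was -0.06 to 0.08 in the WT libraries and -0.26 to -0.17 in the HAR123-KO libraries.

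**Figure D4:**
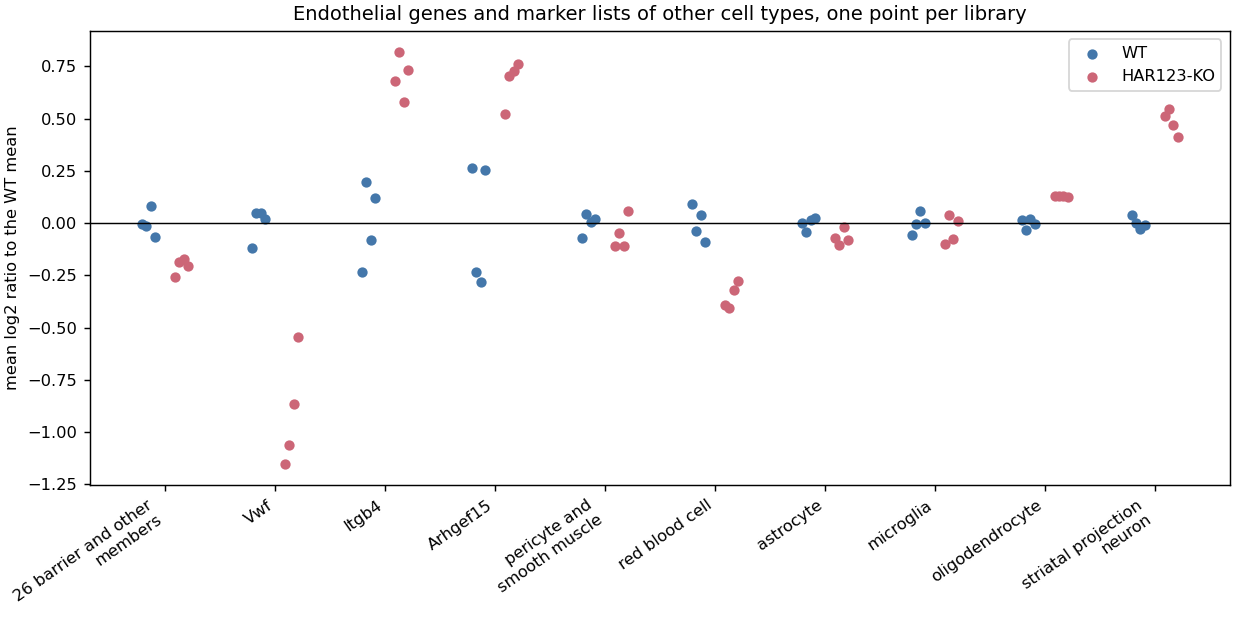
Mean log2 ratio to the WT mean (vertical axis) for the 26 tested members outside the large vessels, for Vwf, Itgb4 and Arhgef15, and for marker lists of other cells, with 1 point per library and 4 libraries per genotype. In HAR123-KO the mean of the 26 members lies at -0.26 to -0.17, and the single genes Vwf at -1.15 to -0.54 and Itgb4 at 0.58 to 0.82, and the red blood cell and striatal projection neuron lists also lie apart from WT, on opposite sides.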

How the data were processed

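Libraries were grouped by genotype and replicate number from their titles. Per the labels and methods, the authors removed ribosomal RNA, made directional libraries, aligned paired reads with STAR 2.5.2b to GRCm38 and counted reads per gene over exons with featureCounts. The deposited values are raw read counts, and strand and multi-mapping settings are not given in the sources used here. GENCODE M21 supplied symbols for all 55536 genes.

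DESeq2 1.42.0 in R 4.3.3 was fitted to all genes with genotype as the only term, median-of-ratios size factors and an independent filter at 0.1. The limits for a call were those the study used for this tissue, 0.05 for the adjusted p and 0.5 for the size of the log2 fold change. Alternatives were edgeR 4.0.16, limma-voom (limma 3.58.1), TMM factors, library totals, a minimum of 10 counts in 4 libraries, no filter, stricter limits, the replicate number as a block, Pecam1 as the reference gene, a pseudocount of 1 in place of 0.5 for ratios, and leaving out each library. Nuclear protein-coding genes alone were an alternative chosen after seeing the data. The programs were tested on simulated counts. Exact permutation tests used scipy 1.17.1 over 70 assignments. Members, 19 further lists and named genes (all members, list genes with an adjusted p under 0.05 and the 3 most counted of each list) were chosen with earlier results of these data known. Selp, Ppbp, Alas2, Slc4a1 and the genes beside Vwf, Itgb4 and Arhgef15 are outside that rule and were named after their values were seen. Promoters came from a RefSeq table that matched 20 members. Libraries of the same genotype differed by 1.21 to 1.30 times sampling noise (chi-square over degrees of freedom), so none were merged, and intervals reflect this shallow depth.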

Additional observations from a re-analysis of the deposited data

Results flagged for a closer look

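In 5 of 70 groups of 4 libraries (35 members in each genotype), 1 library stood apart from the other 3 by Dixon's test, where chance alone gives 3.5. Sox17 was at 2.05 normalized counts in HAR123-KO replicate 1 against 5.28 to 5.71 in the others. Ocln was at 24.5 in HAR123-KO replicate 4 against 12.3 to 14.1. Tjp1 was at 545 in WT replicate 3 against 571 to 576. In WT replicate 4, Slc2a1 was at 177 against 142 to 147, and Lef1 was at 22.5 against 30.5 to 31.5. Such a library is expected in about 1 in 20 groups by chance, and no cause was tested.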

How the results depend on the processing

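The count of genes past the threshold was 38 with DESeq2, 73 with edgeR, 3 with the stricter limits and 11 to 44 when single libraries were left out. The count of members past it was 3, with 4 by edgeR, 4 by limma-voom, 0 under the stricter limits and 0 to 2 without single libraries, and members with an adjusted p under 0.05 numbered 5 with edgeR and 0 to 3 without single libraries. Vwf was past the threshold in 14 of 15 alternatives that gave it an adjusted p, Arhgef15 in 10 of 15 and Itgb4 in 4 of 14, among the last not with nuclear protein-coding genes alone (adjusted p = 0.0595). The median log2 fold change of the members was -0.16 with library totals, which moved the median of all genes to 0.04, and -0.23 to -0.18 without single libraries. The replicate number did not pair the libraries, since deviations of same-numbered libraries correlated at -0.02 to 0.02. With it as a replicate block, 9 genes and 0 members were past the threshold, 0 members had an adjusted p under 0.05, and Vwf had a log2 fold change of -0.91 (adjusted p = 0.124).

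Some signs turned. Mfsd2a was at 0.030 with library totals. Without single libraries, log2 fold changes ran from -0.029 to 0.094 for Slc2a1, -0.090 to 0.031 for Slco1a4, -0.045 to 0.082 for Mfsd2a, -0.25 to 0.042 for Erg, -0.025 to 0.073 for Eng and -0.22 to 0.011 for Esam. The log2 ratio difference was -0.76 for Vwf and -0.23 for Sox17 with Pecam1 in place of Cldn5. Without single libraries it was -0.53 to -0.21 for Vwf over Cldn5, 1.04 to 1.45 for Itgb4 over Cldn5 (p = 0.0571, the smallest an exact permutation of 3 against 4 allows) and -0.24 to 0.46 for Sox17 over Cldn5. Over all values of single members, 418 kept their direction and side of the threshold, 16 lost the call, 2 gained it and 12 turned sign. The cause was not tested.

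Depth limits these values, since 7 members had no adjusted p, and Sox18 and Foxq1 had under 10 normalized counts in every library.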
